A study of Mus musculus with 58 samples.

Results

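Control retinas sampled 1 h after lights off were compared with control retinas sampled in the second part of the light phase. RNA was sequenced from 5 single retinas at ZT13 and 5 at ZT9, 10 of the 58 libraries of the series, chosen by the genotype and time point in their names. ZT, zeitgeber time, counts hours from lights on, and the lights went off at ZT12. The mice were wild-type males (C57/BL/6), 4 months old, littermates of the heterozygous Ins2Akita males that served as the diabetic group, and were housed under equal light and dark phases from birth. All eyes came from animals perfused with cold PBS, and for the night points dissection was done under dim red light. Darkness, time of day and dim red light all differ between ZT9 and ZT13, and their parts in a difference cannot be told apart here. The diabetic mice carry 1 mutated copy of insulin 2 and become hyperglycemic, and their 5 libraries at ZT9 and 4 at ZT13 are used only for values beside those of the control mice. No glucose level was given per sample.

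The retina changes its work when light stops. Rods close their channels in light and hold them open in the dark, when the sodium current that enters must be pumped out again, and photoreceptors meet much of their energy demand by turning glucose into lactate even with oxygen at hand. Light-driven activity, through calcium, cyclic AMP and ERK signalling, induces immediate early genes, transcription factors and feedback phosphatases whose transcripts appear and decay within a short time of a stimulus. The retina also holds its own circadian clock, whose transcripts cycle with a lower amplitude than in most other tissues.

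The ZT9 libraries held 10596639 to 19003584 gene-assigned reads and the ZT13 libraries 9564862 to 16663555, and the share on mitochondrial genes ran from 1.07% to 2.01% and from 1.54% to 1.79%. The summed level of 10 rod markers, which define retinal tissue, was 46200 to 54400 CPM (counts scaled to a common library size) at ZT9 and 43400 to 53800 at ZT13. The 6 blood markers summed to at most 1.32 CPM in any of the 10 libraries. The 16 markers of the retinal pigment epithelium, which adheres to the retina in dissection, summed to 369 to 464 and 290 to 456 CPM. The summed level overlapped between the time points for each of the 14 marker lists, from rods to lens and microglia. In pairwise chi-square comparisons of their counts, ZT9 library 4 differed most from its group, with 16.7 to 33.7 per degree of freedom against 2.88 to 14.3 for the other ZT9 pairs. ZT13 library 4 had 12.6 to 24.2 against 7.3 to 12 for the other ZT13 pairs. In bulk tissue, fewer cells of a type and less RNA per cell cannot be told apart.

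Few genes differed between the time points. Of 19120 genes tested, 24 passed an adjusted p-value of 0.05 (edgeR's quasi-likelihood test, two-sided, Benjamini-Hochberg adjustment), which is 0.126%, with 12 higher at ZT13 (0.0628%) and 12 lower (0.0628%). The transcripts that fell most were those of the nuclear receptor Nr4a3 and of 1700016P03Rik, the host transcript of 2 microRNAs, each by more than 4-fold. Genes that rose did so by less, from 1.21-fold for Cabp5 to 2.04-fold for A930033H14Rik, and included the glycolytic enzyme Hk2, the phototransduction protein Pdc and the nuclear receptor Rorb. Of the 24 genes, 12 changed by less than 1.5-fold and 6 by more than 2-fold. The ZT9 and ZT13 libraries did not overlap for 11 of the 12 genes that rose and 11 of the 12 that fell, against 0.544% and 0.622% of all genes tested. Across all genes the median log2 fold change was −0.00328, with quartiles of −0.0963 and 0.081. Of the 24 genes, 6 passed the threshold under all 18 alternatives tried (1700016P03Rik, A930033H14Rik, Stc1, Nr4a3, BC027072 and Hk2), and each of the other 18 missed it under 1 to 12 of them. Leaving out 1 library gave 12 to 23 genes, with 12 without ZT9 library 3, 13 without library 4, 12 without library 5 and 14 without ZT13 library 3. Without ZT9 library 4, 12 of the 24 genes kept their call, and Gm12758, Dusp6, Imp4, AC160637.1, Egr3, Fscn2, Tuft1, Klf2, Ppp1r3e, Lpin2, Rorb and Cabp5 did not. Without ZT13 library 4, 16 kept it. When only the 10 libraries were fitted, 7 of the 24 kept it, and the adjusted p-values of the other 17 ran from 0.0593 (Fosl2) to 0.786 (Imp4). At an unadjusted p under 0.05, 1088 genes differed (5.69%), of which 461 were higher (2.41%) and 627 lower (3.28%). Among the 24 are 5 genes listed here under a clone or gene model symbol (1700016P03Rik, BC027072, A930033H14Rik, Gm12758 and AC160637.1). They are described because their values had been seen to pass.

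**Figure D1:**
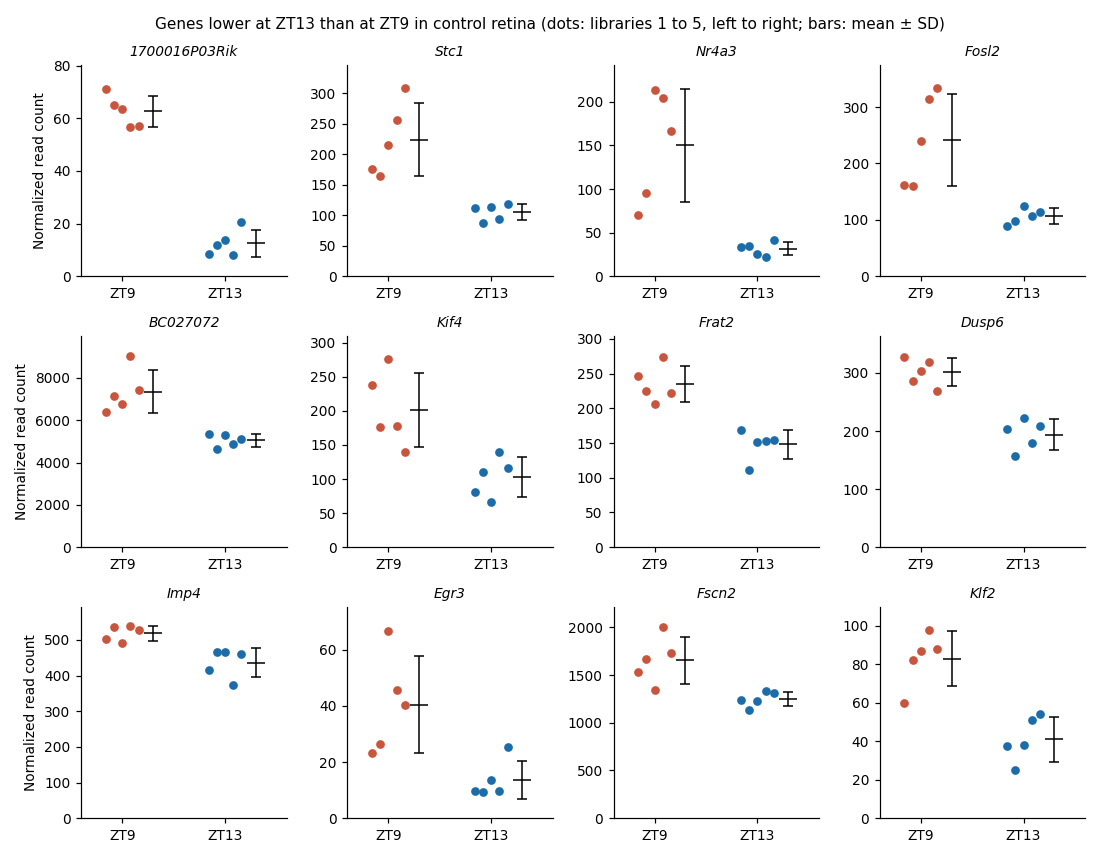
Normalized read counts of the 12 genes that fell from ZT9 to ZT13 in control retina, ordered by p-value, with each axis starting at 0. Each dot is 1 library (1 to 5 from left to right), and the bars give the mean ± SD of 5 libraries. The libraries of the time points lie apart for 11 genes and overlap for Egr3, where 1 ZT13 library lies at 25.2.

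The fall of 1700016P03Rik was the most significant change. Normalized read counts (counts divided by DESeq2 size factors) were 71.0, 65.1, 63.5, 56.6 and 57.3 in ZT9 libraries 1 to 5 and 8.50, 11.8, 13.7, 8.03 and 20.5 in ZT13 libraries 1 to 5. Every ZT13 library lay below every ZT9 library, and the lowest ZT9 value was more than 2-fold above the highest ZT13 value. The fitted level was 4.98-fold lower at ZT13 (log2 fold change −2.32 ± 0.32 SE, adjusted p = 3.55e-05). The gene lies on chromosome 11 at 75172560-75177633, plus strand (GRCm38, Gencode M21, processed transcript), and spans the hairpins of Mir212 and Mir132. It also overlaps Ovca2 on the other strand, and whether the reads were counted by strand is not given in the sources used here. Ovca2 itself had a log2 fold change of −0.02.

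The mature microRNAs of this locus are shown because they share a seed (bases 2 to 8, in capitals), the stretch that pairs with target transcripts, and are known to be induced together by neuronal activity through CREB.
mmu-miR-132-3p: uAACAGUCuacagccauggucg
mmu-miR-212-3p: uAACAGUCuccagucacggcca
They match at 17 of 22 positions, and of the 1738 mature mouse microRNAs in the RefSeq table (GRCm38.p6) only these 2 carry the seed AACAGUC. The mature microRNAs themselves were not measured. Raw reads counted under the hairpin symbol Mir212 were 16, 8, 9, 15 and 16 at ZT9 and 2, 2, 6, 5 and 5 at ZT13, and those under Mir132 were 4, 1, 0, 4 and 4 against 0, 0, 0, 0 and 1. The reads on both hairpins were fewer at ZT13 in sum, 20 against 64 and 1 against 13. Mir212 had a log2 fold change of −1.53 ± 0.402 SE that did not pass the threshold (adjusted p = 0.132), and Mir132 had too few reads to be tested.

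Immediate early genes made up 5 of the 12 genes that fell. Of 38 listed genes 35 were tested, and 5 fell (Nr4a3, Fosl2, Egr3, Klf2 and Dusp6), none rose, and the median log2 fold change of the list was −0.44. At an unadjusted p under 0.05, 21 were lower and 2 higher (3.28% and 2.41% of all genes tested), and for 9 the ZT13 libraries all lay below the ZT9 libraries (0.622% of all genes). The number past the threshold ranged from 2 to 6 when 1 library was left out, with 2 without ZT9 library 3, ZT9 library 4 or ZT13 library 2 and 3 without ZT9 library 5 or ZT13 library 1 or 4, and it was 2 when only the 10 libraries were fitted.

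Nr4a3, an orphan nuclear receptor induced by calcium and cyclic AMP, had 70.2, 95.6, 213.6, 204.2 and 166.3 normalized counts at ZT9 and 34.0, 34.2, 25.8, 22.3 and 42.0 at ZT13. The ZT9 libraries spread over 3-fold, and even the lowest lay above all ZT13 libraries. The level fell 4.72-fold (log2 fold change −2.24 ± 0.353 SE, adjusted p = 0.000248). Fosl2, a subunit of the AP-1 transcription factor, had 162.6, 159.4, 239.0, 314.6 and 334.2 at ZT9 and 89.9, 98.5, 124.6, 107.0 and 113.8 at ZT13. It fell 2.28-fold without overlap (−1.19 ± 0.198 SE, adjusted p = 0.000615), and missed the threshold when only the 10 libraries were fitted (adjusted p = 0.0593). For both genes ZT9 libraries 1 and 2 were the lowest of the 5.

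Dusp6, the phosphatase that switches off ERK, had 327.8, 286.9, 303.5, 318.7 and 268.5 normalized counts at ZT9 and 202.8, 156.3, 221.8, 180.2 and 209.0 at ZT13, with little spread in either group. It fell 1.56-fold (−0.64 ± 0.134 SE, adjusted p = 0.0214). Klf2, a zinc-finger factor known from endothelium, had 59.9, 82.4, 86.7, 98.0 and 88.2 at ZT9 and 37.7, 25.0, 38.0, 50.8 and 54.1 at ZT13, and fell 1.98-fold without overlap (−0.99 ± 0.219 SE, adjusted p = 0.0355). Egr3, an activity-induced zinc-finger factor, was the least abundant of the 5, with 23.1, 26.6, 66.6, 45.5 and 40.2 at ZT9 and 9.72, 9.20, 13.7, 9.81 and 25.2 at ZT13. Library 5 of ZT13 lay above library 1 of ZT9 and below the other four, and the fall was 2.92-fold (−1.54 ± 0.339 SE, adjusted p = 0.0352). These 3 calls depended on single libraries. Dusp6 lost its call without any 1 of 5 of the 10 libraries (adjusted p up to 0.0994, without ZT13 library 2), Klf2 without any 1 of 7 (up to 0.138, without ZT13 library 2) and Egr3 without any 1 of 7 (up to 0.203, without ZT9 library 3).

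Other members did not pass the threshold. Dusp1, another MAP kinase phosphatase, was lower in all ZT13 libraries, 236.5 to 376.9 against 391.3 to 467.7, with a log2 fold change of −0.48 ± 0.135 SE and an adjusted p of 0.204. Egr1 and Nr4a1 were chosen after their values were seen, because their libraries disagreed. Egr1 had 1928, 1806, 1681, 985.1 and 813.1 normalized counts in ZT9 libraries 1 to 5 and 389.8, 448.0, 3145, 599.3 and 4911 in ZT13 libraries 1 to 5. ZT13 libraries 3 and 5 were thus above all ZT9 libraries and the other three below all of them, and the log2 fold change of 0.39 ± 0.571 SE turned to −0.36 without ZT13 library 5. Nr4a1 ranged from 297.5 to 887.2 at ZT13 and from 708.7 to 905.1 at ZT9 (−0.44 ± 0.262 SE, adjusted p = 0.985).

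The promoter of Nr4a3 is shown because the motif known to be bound by CREB, TGACG or its reverse complement CGTCA, recurs in it. The 98 bases before the annotated gene start, chr4:48045055-48045152 on the plus strand (GRCm38.p6, RefSeq promoter table), hold 3 matches, in capitals.
Nr4a3: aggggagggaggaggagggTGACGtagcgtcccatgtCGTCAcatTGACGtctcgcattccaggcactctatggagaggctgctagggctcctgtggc
Over the 300 bases listed for each promoter, counting matches on both strands that do not overlap one another, Nr4a3 held 4, Klf2 1, and Fosl2 and Dusp6 0, and Egr3 had no entry. At least 1 match was present in 23.0% of all 27025 genes with a promoter, in 33.6% of the 11936 tested genes with one, and in 17 of 26 immediate early genes with one. At least 3 matches were present in 0.703% of all genes with a promoter, in 1.4% of the tested genes with one and in 4 of the 26. A match is a description of the letters and no measurement of binding.

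Among the other genes that fell, Stc1, a secreted glycoprotein of calcium and phosphate balance, had 176.3, 164.7, 214.7, 256.6 and 309.5 normalized counts at ZT9 and 111.7, 88.0, 114.0, 94.5 and 118.5 at ZT13. The ZT13 libraries lay close together below a wide ZT9 group, and the level fell 2.15-fold (−1.10 ± 0.165 SE, adjusted p = 8.37e-05). BC027072 was abundant, with 6379, 7147, 6746, 9015 and 7449 at ZT9 and 5336, 4637, 5284, 4855 and 5135 at ZT13, and fell 1.46-fold without overlap (−0.55 ± 0.0945 SE, adjusted p = 0.00112). Kif4, a kinesin of the mitotic spindle, ranged from 139.3 to 276.0 at ZT9 and from 66.9 to 139.1 at ZT13 (1.94-fold lower, adjusted p = 0.00549). Its groups nearly touched, and the call was lost without ZT9 library 3 (adjusted p = 0.0548) and when only the 10 libraries were fitted (adjusted p = 0.263).

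Frat2, an inhibitor of GSK3 in Wnt signalling, went from 206.2 to 273.2 at ZT9 to 111.7 to 168.8 at ZT13 (1.59-fold lower, adjusted p = 0.00633, but 0.0505 without ZT13 library 2 and 0.0813 when only the 10 libraries were fitted). Fscn2, the photoreceptor fascin that bundles actin in the outer segment, went from 1340 to 2005 down to 1138 to 1331, groups that nearly touched (1.33-fold lower, adjusted p = 0.0352). Imp4, a protein of ribosomal RNA processing, showed the smallest of the falls, 490.7 to 538.1 against 374.6 to 466.4 (1.20-fold lower, adjusted p = 0.0352). Fscn2 lost its call without any 1 of 6 libraries (adjusted p up to 0.236, without ZT9 library 4) and Imp4 without any 1 of 5 (up to 0.198, without ZT13 library 4).

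**Figure D2:**
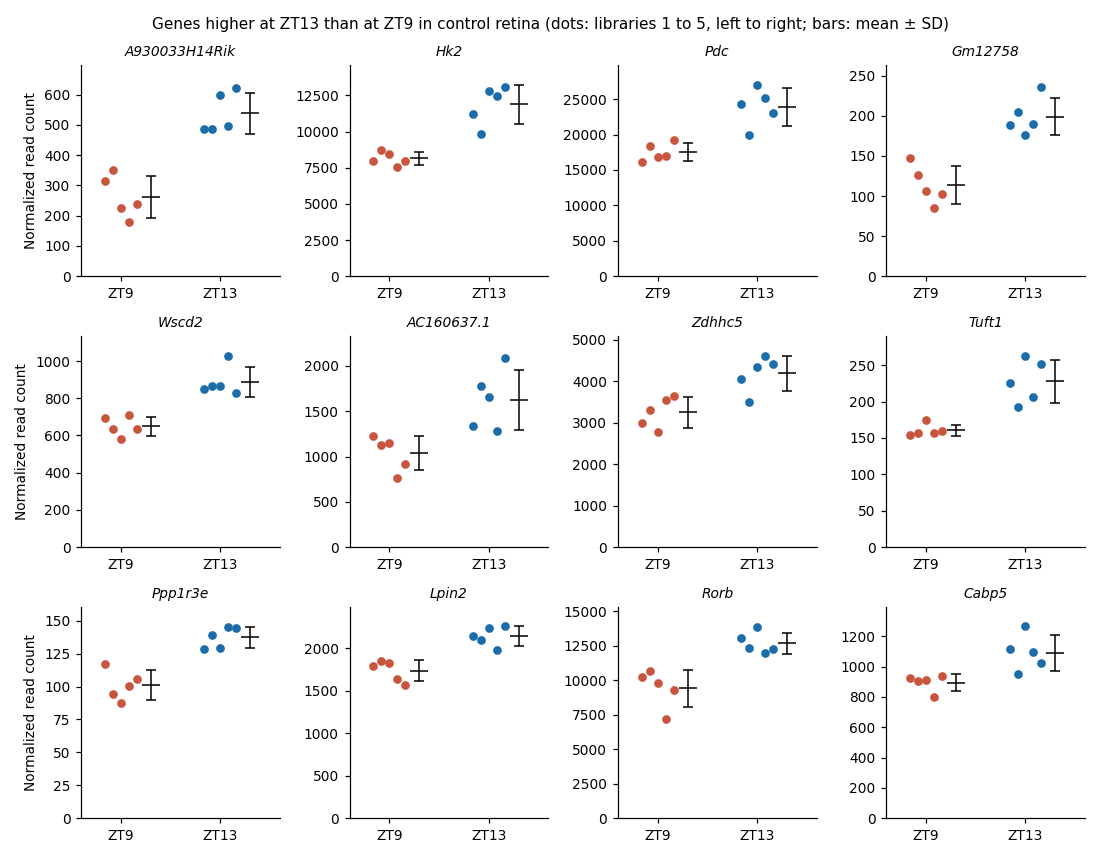
Normalized read counts of the 12 genes that rose from ZT9 to ZT13 in control retina, ordered by p-value, with each axis starting at 0. Each dot is 1 library (1 to 5 from left to right), and the bars give the mean ± SD of 5 libraries. The libraries of the time points lie apart for 11 genes and overlap for Zdhhc5.

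Among the genes that rose, Hk2 codes for hexokinase 2, which commits glucose to glycolysis and is the photoreceptor form of the enzyme. It had 7953, 8756, 8454, 7573 and 7978 normalized counts at ZT9 and 11190, 9861, 12810, 12490 and 13060 at ZT13. Every ZT13 library lay above every ZT9 library, and the rise was 1.45-fold (log2 fold change 0.54 ± 0.0969 SE, adjusted p = 0.00262).

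Of 26 glycolysis and lactate genes tested, Hk2 was the only one past the threshold. Of the 26, 23 had a higher and 3 a lower estimate at ZT13, the median log2 fold change was 0.171 beside −0.00328 over all genes, and 11 were higher and none lower at an unadjusted p under 0.05 (2.41% and 3.28% of all genes). Slc16a3, which exports lactate, had 515.3 to 641.0 at ZT9 and 673.9 to 1197 at ZT13 (0.54 ± 0.135 SE, adjusted p = 0.0969). Pgk1, phosphoglycerate kinase, had 1068 to 1363 and 1430 to 1822 (0.41 ± 0.106 SE, adjusted p = 0.126). Pfkfb3, whose product activates phosphofructokinase, had 629.6 to 745.0 and 768.5 to 1105 (0.28 ± 0.088 SE, adjusted p = 0.329). In these 3 genes no ZT13 library fell within the ZT9 range, though none passed the adjusted threshold. Slc16a3 and Pgk1 did pass in DESeq2 (adjusted p = 0.0398 and 0.0499).

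Of 24 genes tested for HIF1 and oxygen sensing none passed the threshold, and 8 were higher and 1 lower at an unadjusted p under 0.05 (2.41% and 3.28% of all genes), with a median of 0.0899. The 4 with the smallest p-values were Egln1, the oxygen-sensing prolyl hydroxylase (0.30 ± 0.0911 SE), Kdm3a, a hypoxia-induced histone demethylase (0.33 ± 0.102 SE), Bnip3, a mitophagy receptor (0.37 ± 0.116 SE), and Pdk1, which turns pyruvate away from the citric acid cycle (0.28 ± 0.0904 SE), with adjusted p-values from 0.297 to 0.373. For Bnip3 and Pdk1 the groups did not overlap. Of 30 genes of the citric acid cycle and pyruvate dehydrogenase none passed, with a median of 0.0285, and 0 of 36 complex I subunits passed, with a median of 0.0346.

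Pdc codes for phosducin, which binds the beta-gamma subunits of transducin in photoreceptors. It was the most abundant gene that changed, with 16190, 18350, 16810, 16910 and 19300 normalized counts at ZT9 and 24260, 19890, 27040, 25100 and 23080 at ZT13. The lowest ZT13 library lay just above the highest ZT9 library, and the rise was 1.35-fold (0.44 ± 0.0851 SE, adjusted p = 0.00751, but 0.0612 without ZT13 library 3 and 0.144 when only the 10 libraries were fitted). Gm37764, a gene model within Pdc on the same strand that was chosen after its values were seen, had 295.3 to 530.0 at ZT9 and 518.2 to 1121 at ZT13 (0.93 ± 0.231 SE, adjusted p = 0.0835), so reads of the 2 genes may be split between them. Of 21 rod phototransduction genes Pdc was the only one past the threshold, and no other reached an unadjusted p of 0.05, with a median of −0.00914. Of 11 cone phototransduction genes none passed, and Arr3, cone arrestin, was lower at an unadjusted p of 0.0101 (−0.26 ± 0.0967 SE, adjusted p = 0.558).

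Rorb, a nuclear receptor needed for photoreceptor development and part of the stabilizing loop of the clock, had 10200, 10640, 9767, 7191 and 9326 normalized counts at ZT9 and 13030, 12340, 13830, 11970 and 12250 at ZT13. All ZT13 libraries were above all ZT9 libraries, and the rise was 1.34-fold (0.42 ± 0.0958 SE, adjusted p = 0.0458). The call was lost without any 1 of 8 libraries, with an adjusted p up to 0.296 without ZT9 library 4, the lowest of its group.

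Rorb was the only one of 15 core clock genes past the threshold. Per1, the light-responsive period gene, had 2161, 2289, 2312, 3474 and 2748 at ZT9 and 1781, 1625, 1869, 2453 and 2174 at ZT13, groups that overlapped (−0.40 ± 0.15 SE, adjusted p = 0.565). The other 13 had log2 fold changes between −0.17 (Dbp) and 0.13 (Rora), among them Arntl at −0.03, Clock at 0.09, Npas2 at 0.13, Per2 at −0.02, Per3 at −0.01, Cry1 at 0.00, Cry2 at −0.08, Nr1d1 at −0.05, Nr1d2 at 0.05 and Nfil3 at −0.02. None of these 13 reached an unadjusted p of 0.05. The widest of their 95% intervals, that of Npas2, ran from −0.21 to 0.48.

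Of 10 clock output and accessory genes none passed. Ciart, a repressor of the CLOCK and BMAL1 complex, was lower in all ZT13 libraries, 155.0 to 222.0 against 226.7 to 309.1 (−0.47 ± 0.143 SE, adjusted p = 0.301), and Bhlhe40 had −0.24 ± 0.106 SE (adjusted p = 0.746). Of 6 retinal clock-controlled genes none passed. Drd4, the dopamine receptor of photoreceptors, had 2254, 2125, 1983, 2933 and 2377 at ZT9 and 2402, 2619, 2805, 4594 and 3765 at ZT13 (0.47 ± 0.132 SE, adjusted p = 0.214). Its ZT13 libraries 4 and 5 lay above all ZT9 libraries and the other three within their range. Nr2e3, which holds rods to their fate, had −0.25 ± 0.0896 SE and Plekhb1, a photoreceptor membrane protein, 0.22 ± 0.0872 SE (adjusted p = 0.502 and 0.634).

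Cabp5, a calcium-binding protein of bipolar cells, had 922.5, 903.2, 910.6, 798.9 and 935.4 normalized counts at ZT9 and 1115, 951.1, 1266, 1095 and 1024 at ZT13, a narrow separation. It rose 1.21-fold (0.27 ± 0.0628 SE, adjusted p = 0.0458), the smallest of the rises, and lost its call without any 1 of 8 libraries (adjusted p up to 0.31, without ZT13 library 3). Of 16 genes of ON bipolar signalling 14 had a higher estimate at ZT13, 5 of them at an unadjusted p under 0.05 (2.41% of all genes), with a median of 0.0838. Trpm1, the channel of ON bipolar cells, had 0.18 ± 0.0691 SE and Isl1, a factor of ON bipolar cells, 0.21 ± 0.0893 SE, neither past the adjusted threshold. Vsx1, a factor of cone bipolar cells that was chosen after its values were seen, had 0.42 ± 0.101 SE (adjusted p = 0.0733, and 0.0193 in DESeq2).

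The summed level of the 10 bipolar cell markers, of which none was at 0, was 1840, 1710, 1540, 1640 and 1570 CPM at ZT9 and 1790, 1890, 1780, 1910 and 1860 at ZT13. Only ZT9 library 1 lay within the ZT13 range. Of the 10 markers Cabp5 passed the threshold and 6 were higher at an unadjusted p under 0.05 (2.41% of all genes), with a median of 0.173. Other inner retinal markers also leaned up, 9 of 10 for ganglion cells (median 0.101) and 11 of 12 for amacrine and horizontal cells (median 0.0704). At the unadjusted threshold 0 and 1 of these were higher. The medians of the rod and cone markers were −0.0124 and −0.0194. The part of a different yield of bipolar cell RNA in the result for Cabp5 was not tested.

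A930033H14Rik, the gene with the largest rise, had 314.9, 352.0, 224.2, 180.7 and 237.5 normalized counts at ZT9 and 487.0, 484.8, 600.1, 495.9 and 623.2 at ZT13. All ZT13 libraries lay well above the ZT9 libraries (2.04-fold, 1.03 ± 0.149 SE, adjusted p = 5.86e-05). It lies on chromosome 10 at 69209762-69213098, minus strand (GRCm38, Gencode M21), within Rhobtb1 on the other strand, which had 183.4 to 276.0 and 248.3 to 417.9 (0.39 ± 0.152 SE, adjusted p = 0.582). Without a stated strand setting, reads of the pair cannot be told apart. Gm12758, annotated as antisense to 4931406P16Rik, rose 1.74-fold, from 85.6 to 147.2 up to 176.2 to 236.0 (adjusted p = 0.0155), while 4931406P16Rik had a log2 fold change of 0.03. AC160637.1 rose 1.56-fold, from 765.8 to 1222 up to 1287 to 2089 (adjusted p = 0.0352). Both lost their calls without single libraries, Gm12758 for 4 of 10 (adjusted p up to 0.109, without ZT9 library 4) and AC160637.1 for 5 of 10 (up to 0.184, without ZT9 library 4).

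Tuft1, Wscd2, Ppp1r3e, Zdhhc5 and Lpin2 also rose. Tuft1, tuftelin, went from 154.0 to 174.5 up to 193.1 to 262.8 (1.41-fold, adjusted p = 0.0352), and Wscd2 from 580.6 to 709.2 up to 826.6 to 1027 (1.35-fold, adjusted p = 0.0352). Ppp1r3e, which brings protein phosphatase 1 to glycogen, went from 87.8 to 117.2 up to 128.7 to 145.4 (1.35-fold, adjusted p = 0.042). In these 3 the groups lay apart. Zdhhc5, an enzyme that attaches palmitate to proteins, had 2763 to 3647 and 3506 to 4605, which overlap (1.28-fold, adjusted p = 0.0352). Lpin2, a phosphatidate phosphatase of lipid synthesis, went from 1562 to 1852 up to 1974 to 2261 (1.23-fold, adjusted p = 0.0445). Each of the 5 lost its call without 1 library in 6 to 9 of 10 cases, with adjusted p-values up to 0.152 for Tuft1 (without ZT13 library 3), 0.159 for Wscd2 (without ZT13 library 4), 0.17 for Ppp1r3e and Zdhhc5 (without ZT9 library 3) and 0.195 for Lpin2 (without ZT9 library 5).

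**Figure D3:**
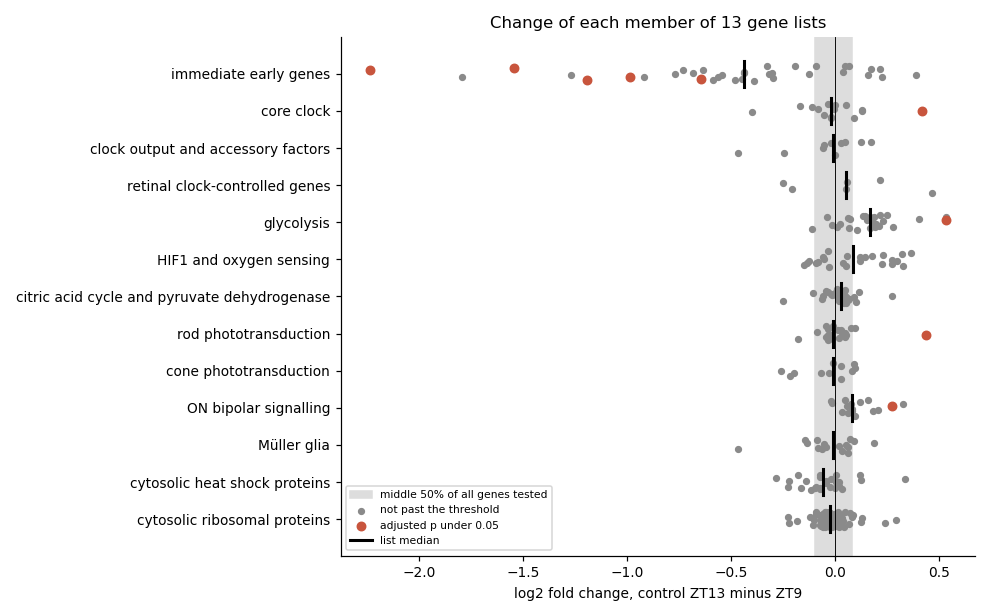
log2 fold change of control ZT13 minus ZT9 (horizontal axis) for each tested member of 13 gene lists (rows), with the list median as a bar and the middle of all tested genes, −0.0963 to 0.081, shaded. The medians of the immediate early genes (−0.44) and glycolysis (0.171) lie outside the shading, those of HIF1 and oxygen sensing (0.0899) and ON bipolar signalling (0.0838) lie just outside it, and those of the other lists plotted lie inside it.

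The following lists of other functions held no gene past the threshold. Of 78 cytosolic ribosomal proteins none passed, with a median of −0.0231 and 1 lower at an unadjusted p under 0.05, a threshold that 3.28% of all genes passed in this direction. None of 26 cytosolic heat shock proteins passed (2 lower at this threshold, median −0.0572), none of 24 ER chaperones (3 lower, median −0.036), none of 38 DNA repair genes (2 lower, median −0.0429) and none of 16 Müller glia genes (median −0.0108). Of 19 glucocorticoid receptor targets none passed, 13 had a lower estimate and 4 were lower at an unadjusted p under 0.05 (3.28% of all genes), Dusp1 among them, which is also an immediate early gene. The median of this list, −0.152, lay below the lower quartile of all genes. Of 11 neuropeptide genes none passed, and Bdnf, the activity-dependent neurotrophin, was lower in all ZT13 libraries, 82.1 to 131.2 against 158.3 to 188.0 (−0.67 ± 0.179 SE, adjusted p = 0.153). Txnip, an arrestin-family protein induced by glucose and kept in the list of insulin and growth factor signalling, was also lower in all, 74.6 to 111.5 against 122.2 to 149.3 (−0.48 ± 0.162 SE, adjusted p = 0.416).

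The place of these changes in the day was read from the mean levels at all 6 time points of the control group. The genes had been chosen by their ZT9 and ZT13 levels in these same libraries, which favors highest and lowest means at ZT9 and ZT13. Of the 12 genes that fell, 7 had their highest mean at ZT9 and 5 at ZT1, and the lowest mean was at ZT13 for 7 and at ZT21 for 5. Of the 12 that rose, 8 had their highest mean at ZT17, 3 at ZT13 and 1 at ZT21. For 1700016P03Rik the means were 57.7 ± 6.66 at ZT1, 39.4 ± 18.0 at ZT5 (n = 6) and 62.7 ± 5.98 at ZT9. They were 12.5 ± 5.06 at ZT13, 12.0 ± 4.44 at ZT17 and 7.07 ± 2.8 at ZT21 (n = 4; SD, n = 5 elsewhere). The ZT5 libraries ran from 8.11 to 60.8, from within the ZT13 range to within the ZT9 range. For Nr4a3 the means were 159.7 ± 30.9 at ZT1, 66.2 ± 34.7 at ZT5, 150.0 ± 64.4 at ZT9 and 31.7 ± 7.74 at ZT13. Its mean at ZT5 lay between those of ZT9 and ZT13, with libraries from 27.1 to 107.4 that reached into both ranges. Hk2 went on rising, from 8143 at ZT9 and 11884 at ZT13 to 15640 at ZT17, while Pdc was near its night level at ZT13, with 23872 against 24360 at ZT17. Differences among these other time points were not tested here.

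**Figure D4:**
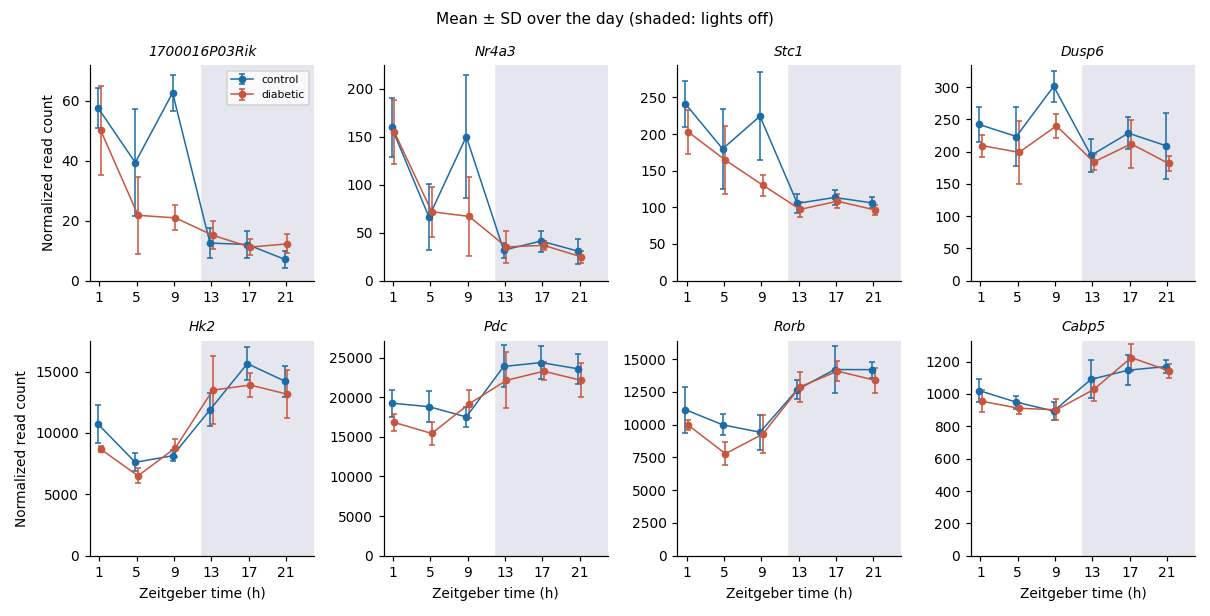
Mean normalized read count ± SD against zeitgeber time in hours for 8 genes in control and diabetic retina, with the dark phase shaded. For 1700016P03Rik, Nr4a3, Stc1 and Dusp6 both means drop from ZT9 to ZT13, and at ZT9 the control mean lies above the diabetic mean. For Hk2, Pdc, Rorb and Cabp5 both means rise.

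The same time points in the diabetic mice share no library with the control ones. There 33 of 19120 genes passed (0.173%). The 14 tested pigment epithelium markers had a median log2 fold change of 0.834 in diabetic mice, with 9 higher at an unadjusted p under 0.05. The 4 tested markers of cornea, conjunctiva and ciliary body had 0.843, with 3 higher. In control mice these medians were −0.0414 and −0.324. The part of such tissue in the diabetic values was not tested. Of the 24 control genes, 23 had the same direction of change, 18 of them at an unadjusted p under 0.05 (7.85% of all genes passed this in either direction), and 7 passed the adjusted threshold. The exception in direction was Ppp1r3e, with 0.43 in control and −0.05 in diabetic mice. The median log2 fold change of the 12 genes that rose was 0.438 in control and 0.41 in diabetic mice, and that of the 12 that fell was −0.973 and −0.40.

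Among the genes that rose, Hk2 had 0.54 in control and 0.62 in diabetic mice, Rorb 0.42 and 0.47, A930033H14Rik 1.03 and 0.88, and Pdc 0.44 and 0.21. Among those that fell, BC027072 had −0.55 and −0.67, and Fscn2 −0.41 and −0.43. Of the 12 genes that fell, 10 fell less in diabetic mice, all but BC027072 and Fscn2. Stc1 had −1.10 and −0.42, Kif4 −0.96 and −0.13, Frat2 −0.67 and −0.38, and Imp4 −0.26 and −0.17. The rest of the 10 were 1700016P03Rik and the 5 immediate early genes that fell. 1700016P03Rik had −2.32 and −0.48, Nr4a3 −2.24 and −0.83, Fosl2 −1.19 and −0.18, Egr3 −1.54 and −0.21, Klf2 −0.99 and −0.43, and Dusp6 −0.64 and −0.38. Nr4a1, which passed in neither, had −0.44 in control and 0.86 ± 0.28 SE in diabetic mice (edgeR interaction, adjusted p = 1, and unadjusted 0.00129). The median over the 35 tested immediate early genes was −0.439 in control and −0.102 in diabetic mice. The levels of 1700016P03Rik at ZT9 were 62.7 ± 5.98 in control and 20.9 ± 4.20 in diabetic mice (SD, n = 5 each), and at ZT13 they were 12.5 ± 5.06 (n = 5) and 15.1 ± 4.72 (n = 4). The Mir212 hairpin within this transcript, with few reads and not past the adjusted threshold in either genotype, had −1.53 ± 0.402 SE in control and −1.51 ± 0.536 SE in diabetic mice.

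No difference of the change between genotypes passed the adjusted threshold for any of the 19120 genes (edgeR interaction, smallest adjusted p = 1, and 581 genes at an unadjusted p under 0.05, which is 3.04%; DESeq2 also called 0). Of the 24 genes, 7 had an unadjusted interaction p under 0.05: 1700016P03Rik (0.000515), Fosl2 (0.000977), Ppp1r3e (0.00127), Kif4 (0.00262), Stc1 (0.00751), Nr4a3 (0.0103) and Egr3 (0.0116). The 24 genes had been chosen by their change in the control mice, and none of the changes is shown to be particular to control retina.

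**Figure D5:**
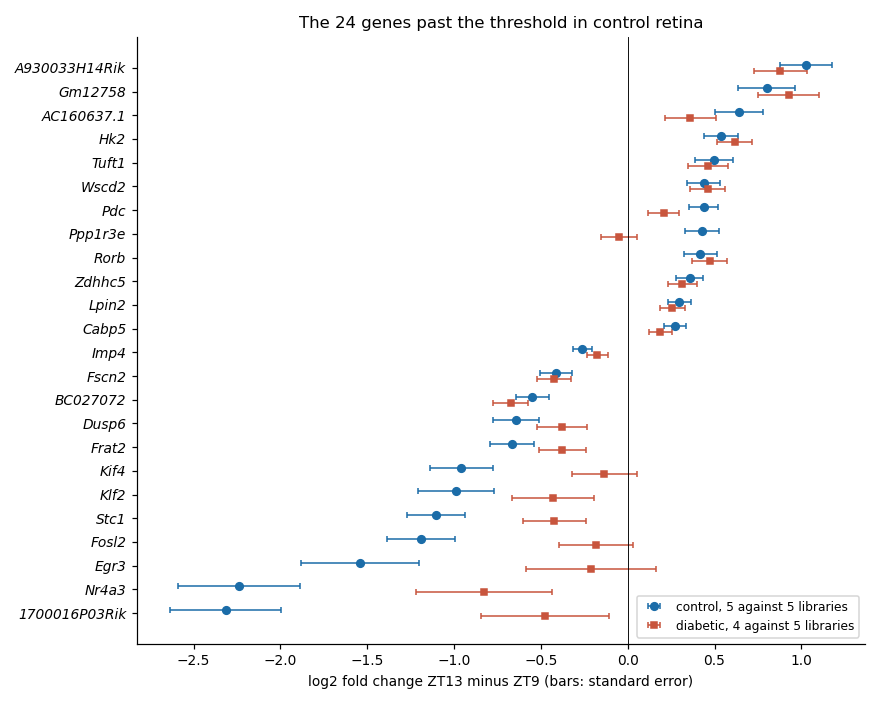
log2 fold change of ZT13 minus ZT9 with its standard error for the 24 genes past the threshold in control retina, in control (circles) and in diabetic mice (squares). The genes were chosen by the control values, 23 of 24 have the same sign in both, and Ppp1r3e lies at −0.05 in diabetic mice.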

How the data were processed

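Retinal total RNA was depleted of ribosomal RNA and sequenced in pairs of 50 bases. Per the study's methods, the authors aligned reads with STAR 2.7.4a to GRCm38.p5 with Gencode M15 and counted them per gene with HTSeq 0.11.1, and the deposited values are raw read counts, neither normalized nor filtered, for 52459 symbols, of which 15226 had no read. All 58 columns were mapped by their titles. Genes with a median above 4 DESeq2-normalized counts over the 58 libraries were tested (19120). The test was edgeR 4.0.16 in R 4.3.3, quasi-likelihood, TMM factors, 12 groups of genotype and time point in 1 fit, with contrasts ZT13 minus ZT9 in each genotype and their difference. Printed counts are divided by DESeq2 1.42.0 size factors. The fit was tested on simulated data. The study calls the libraries biological replicates, and the 20 pairs within the control ZT9 and ZT13 groups all differed beyond sampling noise.

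Alternatives were other normalizations, filters, tests and samples, a replicate block, and each library left out. The genes and lists were chosen with earlier results of these data known. Named are the 12 rising and 12 falling genes with the smallest p-values. Also named are 5 each with the largest fold among those averaging at least 50 counts (clone and gene model symbols excepted). To these were added 15 clock and 6 clock-controlled genes, and up to 4 per list by p-value. Marker lists were given as summed CPM. Positions are from Gencode M21, where 18377 of 19120 tested symbols matched, and 26 symbols that had turned into dates were kept. Some genes that the naming rule selects are not reported here.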

Additional observations from a re-analysis of the deposited data

Results flagged for a closer look

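In 9 of 126 groups of 5 libraries, over the genes examined library by library, 1 library stood apart from the others by Dixon's test, where chance gives about 1 in 20 groups. Among the genes that changed, Wscd2 in ZT13 library 4 had 1027 normalized counts against 865.7 in the nearest library, Egr3 in ZT13 library 5 had 25.2 against 13.7, Tuft1 in ZT9 library 3 had 174.5 against 159.4 and Cabp5 in ZT9 library 4 had 798.9 against 903.2. Among the others, Bhlhe40 in ZT13 library 2 had 620.1 against 789.2, Pfkfb3 in ZT13 library 5 had 1105 against 803.7, Bnip3 in ZT9 library 4 had 627.8 against 885.2, Rora in ZT9 library 4 had 5149 against 6580 and Per3 in ZT9 library 5 had 2265 against 2682. ZT9 library 4 was the low one for Cabp5, Bnip3 and Rora.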

How the results depend on the processing

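Of the 24 genes called between control ZT9 and ZT13, all kept their direction under the 18 alternatives, and 6 kept their call under every one. The count was 45 with the DESeq2 Wald test, 8 with only the 10 libraries in the fit (fewer libraries to estimate the spread), 37 with the replicate block and 12 to 23 with 1 library left out. In diabetic mice the count of 33 became 72 with DESeq2, 19 with only the 9 libraries, 69 with the block and 6 to 44 with 1 library left out. Where a cause is not named, the cause was not tested. The difference between genotypes gave 0 genes under all alternatives run. Of the genes in the functional lists, 9 were called, 3 with only the 10 libraries and 4 to 9 with 1 library left out.

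The block used the replicate numbers of the titles, and no label says whether these pair the samples. The correlation of deviations of same-numbered ZT9 and ZT13 libraries ran from −0.108 to 0.412 over 5 pairs. Of the libraries, 3 of 5 at ZT9 and 2 of 5 at ZT13 correlated best with their own number. Whether libraries of the same number share variation was not tested, and the main fit has no term for it. All 24 genes were among the 37 called with the block. Genes near no change turned sign: Per3 (−0.01) had 0.0031 with RLE factors, 0.0033 with DESeq2 and 0.0016 with the filterByExpr filter, and Cry1 (0.00) had −0.0018 with upper-quartile factors and −0.0020 with no filter. With 1 library left out, Egr1 ran from −0.36 to 0.65, Nr1d2 from −0.0286 to 0.11, Nr1d1 from −0.18 to 0.0696, Nfil3 from −0.0828 to 0.0328, Per2 from −0.13 to 0.0565, Per3 from −0.0673 to 0.0323 and Cry1 from −0.0323 to 0.0614, and none passed the threshold. Of the 39 other genes followed through the alternatives, 4 passed under at least 1 alternative (Slc16a3, Pgk1, Vsx1 and Gm37764). The Mir132 hairpin had too few reads to be tested at this depth.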
